A study of Mus musculus with 4 samples.

Results

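Collagens are the proteins from which the fibrils, networks and basement membranes of the extracellular matrix are built. The genes examined here are those of the deposited count table whose names read Col, a number, the letter a and a number, leaving out Col7a1 and Col17a1. There were 42 of them among 56748 genes, of which 11 encode fibrillar collagens, 8 encode basement membrane collagens (types IV, XV and XVIII) and 23 encode other collagens. The table holds bulk RNA-seq of the small intestine (SI) from 2 WT (p53+/+) and 2 p53-/- mice, all taken 1 day after 12 Gy total-body irradiation (TBI). Both genotypes were irradiated with a Cs-137 source, no unirradiated group was analysed here, and the study's methods give mice 8 to 12 weeks old, matched for age and gender. The p53-/- mice lack p53 in all cells from the germline on, not in 1 cell type. The comparison asks how the SI of irradiated mice with and without p53 differed, and here it was read for the collagens. The column names number the libraries 7 and 8 (WT) and 9 and 10 (p53-/-), and these numbers are used below as names only.

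A collagen molecule is a helix wound from several chains, which can come from a single gene or from different ones. Fibrillar collagens such as types I and III are made largely by fibroblasts and smooth muscle cells and form the fibres of the submucosa and the muscle layers, type IV collagen forms the sheet that underlies the epithelium and surrounds vessels and muscle cells, and type VI forms beaded filaments around cells. In the SI the epithelium contributes little of the fibrillar collagen, so the collagen RNA of a piece of whole tissue comes mostly from the layers beneath it.

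The windows around the transcription starts of 4 collagen genes that the results turn on are printed here, from 250 bases before to 50 bases after the start, 5′ to 3′ on the strand of the gene, as RefSeq gives them for GRCm38.p6. They are shown because Col3a1 and Col1a2 carried much of the fibrillar signal, and because Col4a1 and Col4a2 moved together in every library and start from 1 shared stretch of DNA. Capitals mark the letters TATAAA and CCAAT and the letters GGGCGG, searched on both strands, so that a match on the other strand reads ATTGG or CCGCCC. No marked stretch overlaps another. The windows lie at chr1:45311288-45311587 (plus strand) for Col3a1, chr6:4505368-4505667 (plus strand) for Col1a2, chr8:11312777-11313076 (minus strand) for Col4a1 and chr8:11312555-11312854 (plus strand) for Col4a2.
Col3a1: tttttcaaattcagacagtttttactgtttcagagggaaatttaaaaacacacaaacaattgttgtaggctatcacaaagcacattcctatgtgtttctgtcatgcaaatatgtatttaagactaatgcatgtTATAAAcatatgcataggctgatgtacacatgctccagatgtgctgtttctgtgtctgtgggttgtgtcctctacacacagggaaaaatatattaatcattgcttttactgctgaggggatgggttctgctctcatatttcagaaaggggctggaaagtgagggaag
Col1a2: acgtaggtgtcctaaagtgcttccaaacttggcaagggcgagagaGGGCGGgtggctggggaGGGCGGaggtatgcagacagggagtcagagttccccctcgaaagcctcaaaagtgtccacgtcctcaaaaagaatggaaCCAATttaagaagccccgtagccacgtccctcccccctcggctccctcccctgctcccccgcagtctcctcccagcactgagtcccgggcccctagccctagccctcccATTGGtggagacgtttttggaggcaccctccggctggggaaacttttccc
Col4a1: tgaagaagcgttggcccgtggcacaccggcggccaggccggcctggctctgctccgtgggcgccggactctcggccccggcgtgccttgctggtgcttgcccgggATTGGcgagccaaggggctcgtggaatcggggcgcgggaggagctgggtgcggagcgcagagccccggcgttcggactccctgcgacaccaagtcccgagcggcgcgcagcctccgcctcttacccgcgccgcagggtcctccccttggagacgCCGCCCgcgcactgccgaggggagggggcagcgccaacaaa
Col4a2: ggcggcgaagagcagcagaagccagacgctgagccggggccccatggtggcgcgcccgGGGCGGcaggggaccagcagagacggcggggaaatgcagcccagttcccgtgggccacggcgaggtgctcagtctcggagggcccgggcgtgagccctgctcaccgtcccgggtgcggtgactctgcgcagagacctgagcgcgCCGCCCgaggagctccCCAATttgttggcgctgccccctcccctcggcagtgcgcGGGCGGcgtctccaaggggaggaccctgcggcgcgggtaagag

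Col4a1 and Col4a2 lie head to head on opposite strands, with starts 21 bases apart, and their windows share 78 bases. Their annotated exons overlap by 22 bases, 0.295% of the exon length of Col4a1 and 0.332% of that of Col4a2, so reads of that stretch could not be assigned without strand, which is not given in the sources used here. Col4a5 and Col4a6 form a second such pair, with starts 1343 bases apart. RefSeq windows were matched for 33 of the 42 collagen genes, 36 windows in all. Among these, 22 held GGGCGG (against 35.7% of 32851 windows of all genes), 11 held CCAAT (against 37.4% of all windows) and 4 held TATAAA (against 13.6% of all windows). These are matches of letters and say nothing of a factor bound there.

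The libraries held 15005479 to 22173164 counts. Trp53, the targeted gene, was at 57.7 and 47.1 CPM (counts relative to the TMM-scaled library size) in WT, and in p53-/- it stood at 19.8 and 22.5 CPM, lower in both but not at 0 (log2 fold change -1.31, adjusted p = 0.0602 in edgeR's quasi-likelihood test, Benjamini-Hochberg adjusted). Epithelial markers were high in all 4 libraries, with sums of 26267, 19068, 17424 and 14915 CPM in libraries 7, 8, 9 and 10. Markers of the layers beneath the epithelium did not hold level even within a genotype. The summed level of 8 smooth muscle markers was 516 CPM in library 7 and 4810 CPM in library 8, both WT, against 1090 and 741 CPM in the p53-/- libraries. The p53-/- library 10 stood apart in other ways. It had 894 counts of Cr2, a marker of B cells and follicular dendritic cells, against 0 to 10 in the others. Xist, which is made in female cells, had 588 counts against 0 to 4. Xist counts of this size in a p53-/- library and in neither WT library do not bear out the matching for gender in the methods. The part of sex in the differences below was not tested. Rn18s-rs5, an 18S ribosomal RNA gene, was at 45213 CPM against 3190 to 8385.

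Collagen RNA differed more between the 2 WT libraries than between the genotypes. The 42 genes together received 3770 counts in WT library 7, 21195 in WT library 8, 21796 in p53-/- library 9 and 17603 in p53-/- library 10. As shares of all counts these were 0.0216% (exact 95% binomial interval 0.0209% to 0.0223%), 0.141% (0.139% to 0.143%), 0.0983% (0.0970% to 0.0996%) and 0.0889% (0.0875% to 0.0902%), with intervals that cover counting error only. The summed level was thus 5.89 times as high in library 8 as in library 7, while library 10 was at 0.917 times library 9. Both p53-/- libraries lay between the WT libraries. In bulk tissue, fewer cells of a type and less RNA per cell cannot be told apart.

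Of the 42 collagens, 32 had enough counts to be tested and 0 passed the threshold in edgeR's quasi-likelihood test, Benjamini-Hochberg adjusted, where 0.491% of 16094 tested genes did (0.298% higher and 0.193% lower in p53-/-). An unadjusted p under 0.05 was reached by 0 of the 32 collagens and by 18% of tested genes. DESeq2 and edgeR's likelihood ratio test also called 0 collagens, against 9.94% and 8.05% of the genes given an adjusted p. The smallest adjusted p was 0.333, for Col11a2. The median log2 fold change of p53-/- over WT was 0.30 for the 32 collagens, with 22 above 0 and 10 below, and -0.01 for all tested genes. By class the medians were 0.30 for 9 fibrillar, 0.40 for 6 basement membrane and 0.31 for 17 other collagens. The basement membrane median lay between 3 members above and 3 below 0, the latter the most abundant (Col4a1, Col4a2 and Col18a1), and it was -0.15 with at least 10 counts required in every library and 0.96 with no filter. The standard errors of the collagens ran from 0.44 to 1.41 with a median of 0.78, against a median of 0.30 over all tested genes. The remaining 10 collagens (Col2a1, Col11a1, Col4a3, Col4a4, Col6a6, Col9a1, Col10a1, Col19a1, Col22a1 and Col26a1) had at most 26 counts in any library, and Col19a1 had 0 in all 4.

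Among the fibrillar collagens, Col3a1 (ENSMUSG00000026043), the chain of type III collagen in the fine fibres of the gut wall, was at 43.7 CPM in WT library 7, 243 in WT library 8, 175 in p53-/- library 9 and 168 in p53-/- library 10. Its WT mean was 143 ± 141 CPM and its p53-/- mean 171 ± 4.87 CPM (SD, n = 2 each). The WT libraries lay on both sides of the p53-/- libraries, and the fitted log2 fold change was 0.25 (95% interval -1.57 to 2.08, adjusted p = 0.902).

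Type I collagen, the main fibre-forming collagen, is built from the products of Col1a1 (ENSMUSG00000001506) and Col1a2 (ENSMUSG00000029661). Col1a1 was at 14.1, 115, 82.4 and 72.7 CPM in libraries 7, 8, 9 and 10, and Col1a2 at 17.7, 123, 87.8 and 85.6 CPM. Both showed the order seen for Col3a1, with library 7 lowest and library 8 highest. Their log2 fold changes were 0.26 (95% interval -1.88 to 2.41) and 0.30 (-1.71 to 2.30).

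The type V chains, which join type I fibrils and limit their width, followed the same order. Col5a1 was at 5.63, 36.7, 30.2 and 26.4 CPM in libraries 7, 8, 9 and 10, and Col5a2 at 3.90, 32.6, 20.8 and 15.8 CPM. Col5a2 had a fitted log2 fold change of 0.01 that turned to -0.02 with RLE factors or DESeq2. Col11a2, a chain of the cartilage-type collagen XI, was the only tested fibrillar collagen whose genotypes did not overlap. It was scarce, at 0.743 and 2.01 CPM in the WT libraries and 3.42 and 3.48 CPM in the p53-/- libraries (12, 31, 78 and 70 counts; log2 fold change 1.32, 95% interval -0.19 to 2.84).

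The basement membrane collagens were led by Col4a1 (ENSMUSG00000031502) and Col4a2 (ENSMUSG00000031503), whose products join in the most widespread type IV collagen. Col4a1 was at 26.3 and 175 CPM in WT, and at 87.9 and 79.0 CPM in p53-/-. Col4a2 was at 17.5 and 122 CPM in WT and at 59.7 and 50.9 CPM in p53-/-. Both had fitted values below 0, unlike the type I, III and V chains, with log2 fold changes of -0.27 (95% interval -2.25 to 1.71, adjusted p = 0.904) and -0.33 (-2.34 to 1.68, adjusted p = 0.879). Col18a1, whose product carries the endostatin fragment, was at 14.5, 56.8, 34.8 and 31.3 CPM in libraries 7, 8, 9 and 10.

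Col15a1, which encodes a basement membrane proteoglycan related to type XVIII, was at 2.97 and 13.0 CPM in WT and at 14.7 and 15.2 CPM in p53-/-. Its genotypes did not overlap, though WT library 8 lay much nearer to the p53-/- libraries than to library 7 (log2 fold change 0.91, 95% interval -0.76 to 2.57). Col4a6, the partner of Col4a5 in the smooth muscle form of type IV collagen, had 0 and 34 counts in the WT libraries and 76 and 47 in the p53-/- libraries (log2 fold change 1.36, 95% interval -2.16 to 4.89).

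Among the other collagens, the type VI chains were the most abundant. Col6a1 was at 23.9 and 128 CPM in WT and at 97.8 and 89.6 CPM in p53-/-, Col6a2 at 21.0 and 103 against 94.1 and 80.8 CPM, and Col6a3 at 8.85 and 62.3 against 46.3 and 42.4 CPM. Col6a4 was at 8.05 and 43.3 CPM in WT and at 34.2 and 36.7 CPM in p53-/-. All of them had library 7 lowest and library 8 highest, with log2 fold changes between 0.30 and 0.49. Per kilobase of exon, Col6a1 had the highest level of all collagens in each library, at 5.47, 29.2, 22.3 and 20.5 CPM per kb. Col3a1 was next at 4.45, 24.8, 17.8 and 17.1 CPM per kb. This order rests on the lengths used, all annotated exons of a gene merged, 4380 bases for Col6a1 and 9816 for Col3a1. In CPM, Col3a1 was above Col6a1 in each library.

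Col12a1 and Col16a1 encode collagens that sit on the surface of fibrils. Col12a1 was at 2.54 and 25.3 CPM in WT and at 16.5 and 17.9 CPM in p53-/-, and its WT libraries differed 9.97-fold, the widest WT difference among the 15 collagens with a mean of at least 10 CPM. Col16a1 was at 3.03 and 17.6 CPM in WT and at 10.1 and 9.75 CPM in p53-/-. Col8a1, a chain of the short type VIII collagen found in vessels and muscle, was the only tested collagen lower in both p53-/- libraries, at 0.866 and 2.79 CPM in WT and 0.833 and 0.448 CPM in p53-/- (14, 43, 19 and 9 counts). Library 9 lay close to library 7. Col9a3 was higher in both p53-/- libraries and rested on 7, 2, 18 and 17 counts, and 6.07% of its annotated exon length overlaps Tcfl5 on the other strand.

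**Figure D1:**
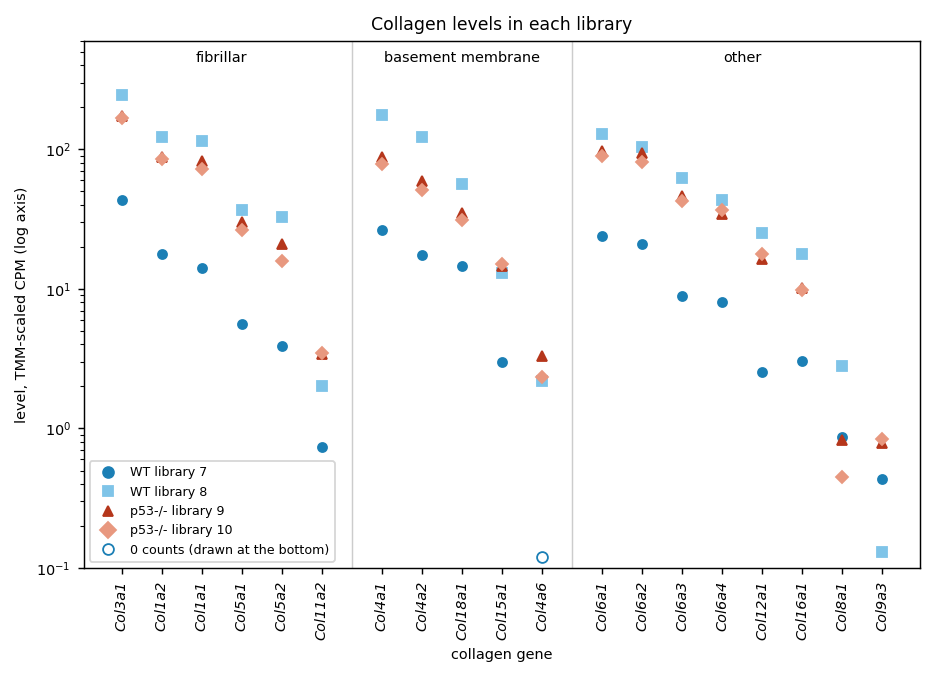
Level of 19 collagens in each library, as TMM-scaled CPM on a log axis, grouped as fibrillar, basement membrane and other; each symbol is 1 library. WT library 7 lies far below the rest and WT library 8 at the top for most genes, with both p53-/- libraries close together between them, and Col4a6 in library 7 (0 counts) is drawn open at the bottom.

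The genotypes did not overlap for 7 of the 32 tested collagens. Both p53-/- libraries were higher for 6 of them (Col11a2, Col15a1, Col4a6, Col14a1, Col6a5 and Col9a3), a smaller share than the 26.4% of all tested genes, and lower for 1 (Col8a1), against 24.4%. Col14a1, which encodes a fibril-associated collagen, had the smallest standard error of the collagens. It was at 3.34 and 6.81 CPM in WT and at 9.99 and 9.20 CPM in p53-/- (log2 fold change 0.92 ± 0.44 SE, adjusted p = 0.354).

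The difference between the WT libraries ran through the whole family. Library 8 was at least 2 times library 7 for 28 of 32 tested collagens, against 17.2% of all tested genes, and at most 1/2 of it for 1 (Col9a3), against 3.52%. The other three were Col20a1, Col28a1 and Col6a5, each with at most 69 counts in any library. Library 7 was the lowest of the 4 for 29 of 32 collagens (30.6% of tested genes) and library 8 the highest for 21 (22%). For the 15 collagens with a mean of at least 10 CPM, library 8 was 3.92 to 9.97 times library 7. All 9 tested fibrillar and all 6 tested basement membrane collagens, and 13 of the 17 others, were past 2 times.

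The p53-/- libraries were close to each other. Library 10 was at least 2 times library 9 for 0 of 32 collagens, against 6.65% of tested genes, and at most 1/2 of it for 2 (3%), Col24a1 with 28 and 8 counts and Col9a2 with 21 and 8. For the 15 more abundant collagens, library 10 was 0.760 to 1.09 times library 9. The log2 difference between the WT libraries was larger than the log2 fold change between genotypes for 27 of 32 tested collagens, against 7718 of 16094 tested genes. It was larger for all 15 collagens with a mean of at least 10 CPM. The WT difference was taken between CPM values and the fold change was the fitted one, so the measures are not the same.

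**Figure D2:**
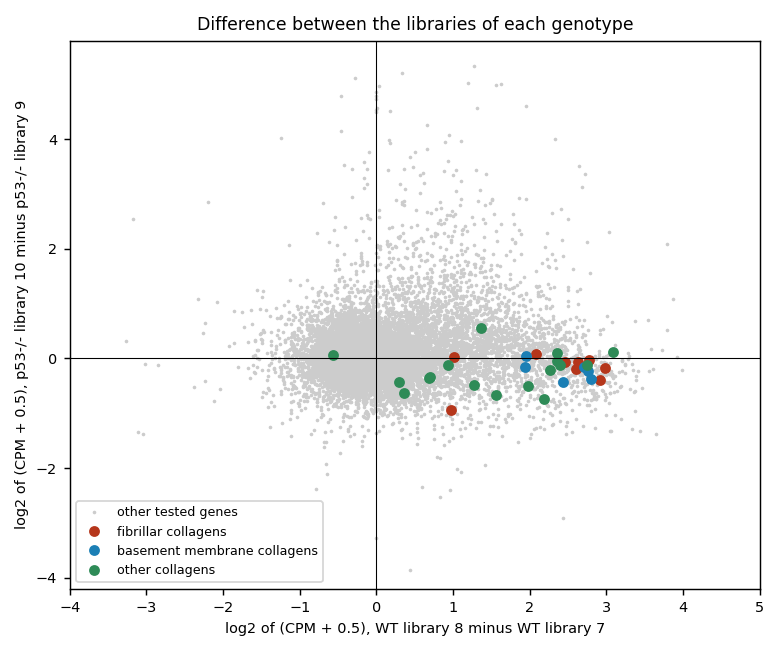
Difference between the 2 WT libraries (horizontal axis) and between the 2 p53-/- libraries (vertical axis) for each of 16094 tested genes, in log2 of CPM with 0.5 added. The collagens of all 3 classes, except Col9a3, lie to the right, with library 8 above library 7, and mostly near 0 on the vertical axis.

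The sign of the genotype difference therefore depended on which WT library was kept. Without WT library 7, the median log2 fold change of the collagens was -0.40 and 24 of 36 tested collagens had values below 0. Col4a1 and Col4a2 then passed the threshold, with log2 fold changes of -1.06 (adjusted p = 0.0494) and -1.13 (adjusted p = 0.0382) in edgeR's quasi-likelihood test, Benjamini-Hochberg adjusted, where 1.83% of 17405 genes were called lower and 1.87% higher. Without WT library 8, the median was 1.85, 34 of 35 collagens had values above 0 and 19 passed the threshold as higher in p53-/-, where 3.98% of 17090 genes were called higher and 2.01% lower. These included Col1a1 (log2 fold change 2.45, adjusted p = 0.00604), Col3a1 (1.96, adjusted p = 0.0127) and, with the opposite sign to the fit without library 7, Col4a1 (1.66, adjusted p = 0.0144) and Col4a2 (1.65, adjusted p = 0.0169). In each of these fits the lone WT library was assumed to vary like the p53-/- libraries. Leaving out a p53-/- library called 0 collagens and gave medians of 0.24 (without library 9, where 0.452% of genes were called higher and 0.0529% lower) and 0.39 (without library 10, where 0 genes were called). In both fits 0 collagens had an unadjusted p under 0.05. Of the 19 collagens shown by library, 10 changed sign without library 7 and 4 without library 8. Col5a2 also changed sign without library 9, and Col16a1 without library 10. Col15a1, Col11a2, Col4a6 and Col9a3 stayed above 0 and Col8a1 below 0 in all 4 fits. The genotypes of these last genes do not overlap, so leaving out 1 library could hardly change their sign and nothing is read from it.

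**Figure D3:**
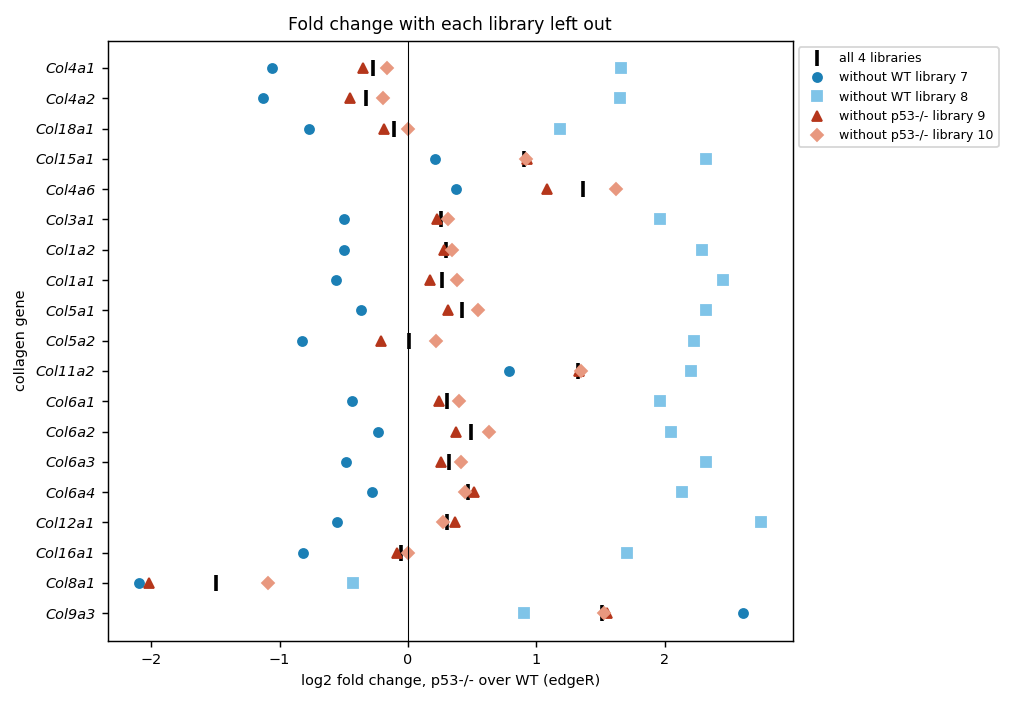
Log2 fold change of p53-/- over WT for 19 collagens with all 4 libraries (bars) and with each library left out (symbols). Values without library 7 lie mostly left of 0 and those without library 8 mostly right of it, and Col4a6 without library 8 is not drawn because the remaining WT library had 0 counts of it.

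Markers of the cells that make collagen differed between the same libraries, and their part in the collagen values was not tested. The summed level of 10 fibroblast markers was 106, 360, 262 and 332 CPM in libraries 7, 8, 9 and 10, of 8 endothelial markers 45.3, 154, 126 and 161 CPM, and of 5 pericyte markers 64.4, 484, 152 and 120 CPM. Library 7 was lowest for 8 of 9 tested fibroblast markers, all 8 endothelial markers, 7 of 8 smooth muscle markers and 4 of 5 pericyte markers. Library 8 was highest for all 8 smooth muscle and all 5 pericyte markers, for 5 of 9 fibroblast and for 6 of 8 endothelial markers. Smooth muscle markers exceeded fibroblast markers 4.88-fold in library 7, 13.3-fold in library 8, 4.17-fold in library 9 and 2.23-fold in library 10. The fibroblast marker Twist2 had 0 counts in both WT libraries and 3 in each p53-/- library. In each of these 4 lists, 0 genes passed the threshold in edgeR's quasi-likelihood test and 0 had an unadjusted p under 0.05.

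Adipocyte markers split by genotype. Their sum was 155 and 108 CPM in WT and 22.5 and 19.8 CPM in p53-/-. Of this, Cidec alone was at 117 and 43.2 CPM in WT and at 18.4 and 13.8 CPM in p53-/-. All 7 tested members were lower in both p53-/- libraries (24.4% of all tested genes were). Of these, 2 passed the threshold as lower, Car3 and Cfd (0.193% of all tested genes did). Car3 was at 12.3 and 22.2 CPM in WT and at 0.219 and 0.249 CPM in p53-/- (adjusted p = 0.0279 in edgeR), and Cfd had 175 and 244 counts in WT against 0 and 1 in p53-/- (adjusted p = 0.0296 in edgeR). Plin1 and Retn, which did not pass, had 0 counts in both p53-/- libraries. Macrophage markers summed to 58.0 and 119 CPM in WT and to 154 and 196 CPM in p53-/-. B cell and follicle markers summed to 1.79, 2.53, 23.1 and 496 CPM in libraries 7, 8, 9 and 10, which set library 10 apart, whereas its collagen values lay near those of library 9. Mesothelial markers summed to 12.7, 18.2, 4.56 and 6.81 CPM, markers of enteric glia and neurons to 30.6, 82.6, 27.9 and 21.7 CPM, and T cell markers to 5.94, 12.2, 53.4 and 98.7 CPM.

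**Figure D4:**
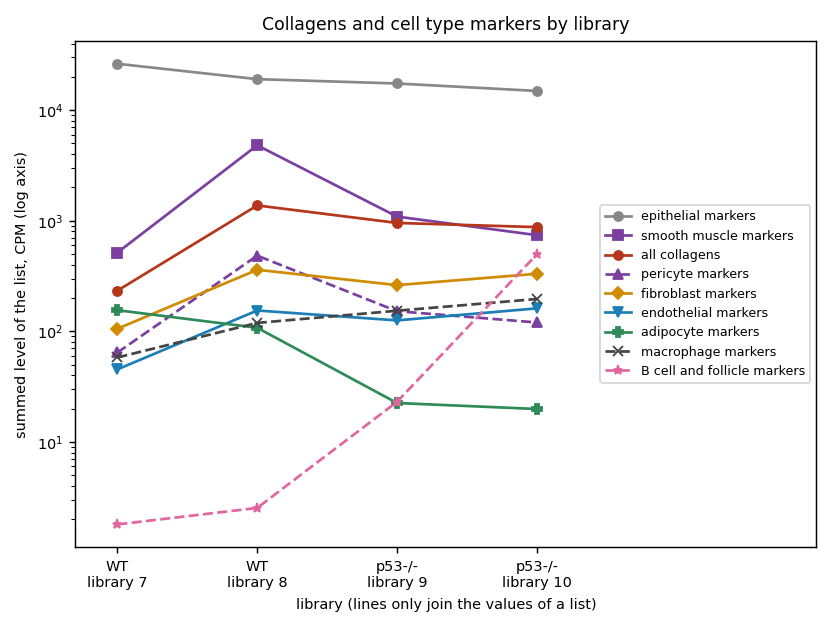
Summed level of all collagens and of 8 marker lists in each library, in TMM-scaled CPM on a log axis; lines only join the values of 1 list. The collagens, smooth muscle, pericyte, fibroblast and endothelial markers were all lower in WT library 7 than in WT library 8, while epithelial markers went from 26267 to 19068 CPM.

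Within the collagens of a library, the balance of the classes could be compared without the total. Basement membrane collagens took 26.6% (exact 95% binomial interval 25.2% to 28.1%) and 27.3% (26.7% to 27.9%) of collagen counts in WT libraries 7 and 8, and 21.8% (21.2% to 22.3%) and 21.1% (20.5% to 21.7%) in p53-/- libraries 9 and 10. Type IV alone took 19.2% (17.9% to 20.4%) and 22.2% (21.6% to 22.8%) in WT and 16.6% (16.1% to 17.1%) and 15.8% (15.2% to 16.3%) in p53-/-. Fibrillar collagens took 38.2% (36.6% to 39.8%) and 41.8% (41.1% to 42.5%) in WT and 43.3% (42.7% to 44.0%) and 44.0% (43.3% to 44.7%) in p53-/-. The basement membrane share was lower, and the fibrillar share higher, in both p53-/- libraries. The intervals cover counting error only and leave out variation between mice. For type IV and for the fibrillar collagens, the intervals of the WT libraries did not overlap each other, while for the basement membrane collagens they did. Intervals that do not overlap between the genotypes are therefore not read as a genotype effect. The shares were formed after the counts were seen and no test was made of them. The other collagens took 35.2% (33.6% to 36.7%), 31.0% (30.3% to 31.6%), 34.9% (34.3% to 35.5%) and 34.9% (34.2% to 35.6%) in libraries 7, 8, 9 and 10, so their genotypes overlapped.

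The single chains did not divide by class. Of the 32 tested collagens, 8 took a smaller share of collagen counts in both p53-/- libraries (Col4a1, Col4a2, Col18a1, Col16a1, Col23a1, Col8a1, Col8a2 and Col9a2) and 10 a larger one (Col1a2, Col5a1, Col5a3, Col11a2, Col6a2, Col6a3, Col6a4, Col15a1, Col4a5 and Col4a6). For level, 24.4% and 26.4% of all tested genes were lower or higher in both p53-/- libraries. A share of collagen counts is another measure, without such a background, so nothing is read from the numbers 8 and 10. Col3a1 and Col1a1 were in neither group. Col4a1 took 11.3%, 12.7%, 9.20% and 9.03% of collagen counts in libraries 7, 8, 9 and 10, and Col4a2 7.51%, 8.85%, 6.25% and 5.82%. Read per kilobase of exon, Col4a1 stood at 1.64 and 1.34 times Col1a1 in the WT libraries and at 0.939 and 0.956 times in the p53-/- libraries. Against Col3a1 it stood at 0.792 and 0.947 in WT and at 0.662 and 0.620 in p53-/-. Both ratios were lower in both p53-/- libraries. The basement membrane chains Col15a1, Col4a5 and Col4a6 went the other way in share, so that among the tested basement membrane chains it was Col4a1, Col4a2 and Col18a1 whose share was lower.

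Chains that assemble into 1 molecule were also compared per kilobase. The size of such a ratio depends on the merged exon lengths, so only its change between libraries is read. Col4a1 was 1.33, 1.28, 1.31 and 1.38 times Col4a2 in libraries 7, 8, 9 and 10, although these genes differed 6.66-fold (Col4a1) or 6.95-fold (Col4a2) between libraries 7 and 8. Col1a1 was 1.51, 1.76, 1.78 and 1.61 times Col1a2. In counts Col1a2 was above Col1a1 in each library, at 286, 1902, 2004 and 1721 against 228, 1773, 1879 and 1461. Their merged exons were 12426 bases for Col1a2 and 6563 for Col1a1. Col6a1 was 2.16, 2.35, 1.98 and 2.11 times Col6a2. Other pairs were less even. Col5a1 was 1.63, 1.27, 1.64 and 1.88 times Col5a2, Col6a3 was 0.135, 0.178, 0.173 and 0.173 times Col6a1, and Col8a1, on few counts, was 0.321, 0.181, 0.205 and 0.215 times Col8a2. Of these 6 ratios, Col6a1 to Col6a2 was lower and Col5a1 to Col5a2 higher in both p53-/- libraries, each by little over the nearest WT library, and the others overlapped between the genotypes.

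**Figure D5:**
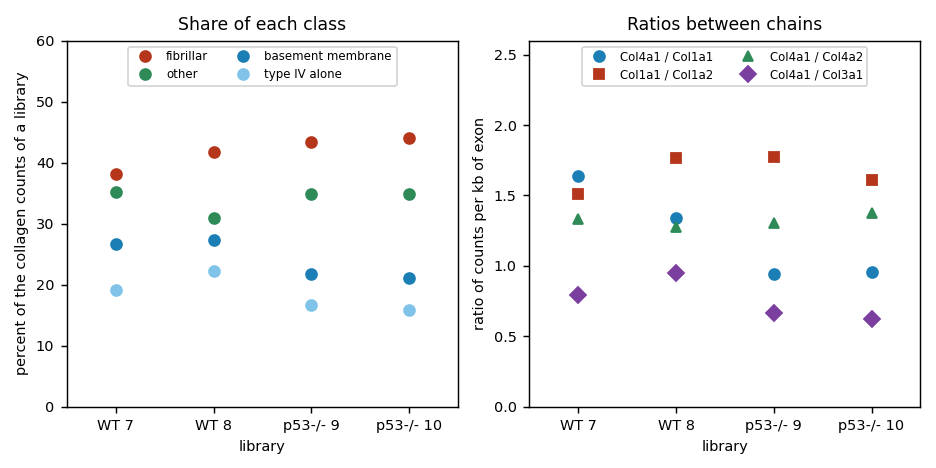
Left, share of a library's collagen counts taken by each class (percent); right, ratio of counts per kilobase of exon between pairs of chains, each point 1 library. The basement membrane and type IV shares and the Col4a1 to Col1a1 and Col4a1 to Col3a1 ratios were lower in both p53-/- libraries, while Col4a1 to Col4a2 held between 1.28 and 1.38.

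The genes that make, process, bind and break down collagen were read from 7 lists of 110 genes, 101 of them tested. The threshold was passed by 1 of the 101, against 0.491% of 16094 tested genes. That 1 was Bmp1 (ENSMUSG00000022098), the protease that removes the C-terminal propeptide so that fibrils can form. It was at 57.6 and 72.0 CPM in WT and at 22.1 and 22.4 CPM in p53-/-, a log2 fold change of -1.54 ± 0.18 SE (adjusted p = 0.0483 in edgeR's quasi-likelihood test, Benjamini-Hochberg adjusted). Unlike the collagens, the 2 WT libraries of Bmp1 were near each other and both lay well above the p53-/- libraries. The call was narrow: the adjusted p ran from 1.73e-09 to 0.422 over 13 other settings and was under 0.05 in 6 of them, and without library 9 or 10 it was 0.129 or 0.422. The log2 fold change ran only from -1.69 to -1.38.

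Plod2 (ENSMUSG00000032374), a lysyl hydroxylase that prepares collagen for cross-linking, showed a larger difference, at 21.1 and 33.2 CPM in WT and at 4.87 and 3.58 CPM in p53-/- (log2 fold change -2.68 ± 0.35 SE). Its adjusted p was 0.0560, outside the threshold, and under 0.05 in 6 of 13 other settings. In the list of synthesis and folding, 0 of 20 tested genes passed and 2 had an unadjusted p under 0.05, Plod2 and Mia2. P4hb, the beta subunit of prolyl 4-hydroxylase and the most abundant gene of that list, was at 1289, 888, 1249 and 1146 CPM in libraries 7, 8, 9 and 10, without the drop in library 7 seen for the collagens. Serpinh1, the collagen chaperone HSP47, did show that drop, at 21.3, 98.9, 69.9 and 74.5 CPM.

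Among 12 tested fibril partners, 0 passed the threshold and library 8 was at least 2 times library 7 for all 12. Sparc, which binds collagen, was at 28.9, 156, 79.2 and 93.6 CPM in libraries 7, 8, 9 and 10, and Bgn, the proteoglycan biglycan, at 16.2, 72.5, 80.3 and 93.3 CPM. Among 15 basement membrane partners 0 passed. Lama3 and Lamb3, chains of the epithelial laminin-332, had no drop in library 7. Lama3 was at 123, 144, 81.3 and 42.9 CPM (log2 fold change -1.10, unadjusted p = 0.0169, adjusted p = 0.182 in edgeR) and Lamb3 at 299, 357, 248 and 145 CPM.

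Among 16 tested breakdown genes, 0 passed. Mmp15, a membrane-bound metalloproteinase, was at 227 and 145 CPM in WT and 80.7 and 81.0 CPM in p53-/- (log2 fold change -1.20, adjusted p = 0.113 in edgeR), and Mmp7, which Paneth cells secrete, at 157 and 112 against 284 and 257 CPM (1.01, adjusted p = 0.127 in edgeR). Of 9 tested receptors 0 passed, with Itga2, the alpha chain of a collagen-binding integrin, at 37.7 and 34.5 CPM in WT and 67.3 and 51.2 CPM in p53-/- and its partner Itgb1 at 326, 425, 319 and 293 CPM in libraries 7, 8, 9 and 10. Of 17 genes of the TGF-beta axis, which drives collagen transcription, 0 passed. Tgfb1 was at 7.61, 12.7, 16.6 and 45.8 CPM in libraries 7, 8, 9 and 10, highest in the library with the B cell markers, and Tgfbi, a secreted protein induced by TGF-beta, at 564, 679, 425 and 341 CPM. Over all 7 lists, 12 of 101 tested genes had an unadjusted p under 0.05, against 18% of tested genes.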

How the data were processed

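Poly(A) RNA of the SI of 2 WT and 2 p53-/- mice was sequenced, and the values the authors deposited are counts of reads on each of 56748 genes, not normalized. Sequencing and analysis were performed by Novogene. The submitters' processing notes name fastp, HISAT2 2.0.5, featureCounts 1.5.0-p3 and DESeq2 1.20.0. The genome build, the annotation and the strand setting of the counting are not given in the sources used here, so reads of overlapping genes and of near-identical copies could have been split. Column names show the genotype and no replicate number.

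Counts were filtered with filterByExpr, scaled by TMM and tested, p53-/- against WT, two-sided, with the quasi-likelihood test of edgeR 4.0.16 in R 4.3.3, with Benjamini-Hochberg adjustment over all 16094 tested genes (threshold 0.05). CPM are TMM-scaled. Standard errors were derived from the fold change and the F statistic, and 95% intervals from a t distribution with 5.45 degrees of freedom. The study's methods call its data points biological replicates, so the libraries were treated as separate mice, 2 per genotype. The libraries within each genotype differed beyond sampling noise (chi-square per degree of freedom 34.5 for WT and 48.9 for p53-/-) and were counted separately. Exon lengths and exon overlaps came from GENCODE M21 (GRCm38) and promoter windows from RefSeq (GRCm38.p6). Lengths were those of all annotated exons of a gene merged, and were used for values per kb only. Ratios of such values between genes depend on these lengths, while their change between libraries does not. The script was tested on simulated data.

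Values by library are given for collagens with a mean of at least 10 CPM, or with genotypes that do not overlap and differ by at least 1 on the log2 scale. Col14a1, Serpinh1 and Mia2 were named after their values were seen. For the companion lists the genes past the threshold, the smallest p and the highest level in each list are named. The collagens and the gene lists, written by hand from general knowledge, were chosen with earlier results of these data known. As alternatives, the scaling was changed to RLE factors, upper-quartile factors or library size alone, the test to DESeq2 1.42.0 or the likelihood ratio test of edgeR, and the filter to none or to a minimum of 10 counts in every library. Other fits dropped segments of immunoglobulins and T cell receptors, the 50 most abundant genes, or 1 library at a time, or used a threshold of 0.1.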

Additional observations from a re-analysis of the deposited data

How the results depend on the processing

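The direction of the collagen values changed with the WT library left out, for 10 of 19 named collagens without library 7 and for 4 without library 8. Collagens past the threshold numbered 0 to 19 higher and 0 to 2 lower in p53-/- over the fits that leave out 1 library, and 0 in either direction under each scaling, filter, tool and threshold tried with all 4 libraries. With no filter on low counts, 8 of 41 collagens had an unadjusted p under 0.05. That fit called 1433 of 27841 genes higher and 761 lower by adjusted p. The share of all its genes with an unadjusted p under 0.05 is not given here, so nothing is read from the 8. The median log2 fold change ran from -0.50 to 2.23 for fibrillar, 0.14 to 1.66 for basement membrane and -0.36 to 1.23 for other collagens when 1 library was left out, and was -0.15 for basement membrane collagens with at least 10 counts in every library, which dropped Col4a5 and Col4a6. Collagens whose genotypes do not overlap (7) numbered 4 of 24 with that filter (51.9% of all tested genes) and 11 to 32 with 1 library left out. They were 30 of 36 without library 7 (77.6% of all tested genes), 32 of 35 without library 8 (81.9%), 12 of 35 without library 9 (73.3%) and 11 of 34 without library 10 (68%). The ranges with 1 library left out were -1.06 to 1.66 for Col4a1, -1.13 to 1.65 for Col4a2, -0.77 to 1.18 for Col18a1, -0.50 to 1.96 for Col3a1, -0.50 to 2.29 for Col1a2, -0.56 to 2.45 for Col1a1, -0.37 to 2.32 for Col5a1, -0.82 to 2.23 for Col5a2, -0.44 to 1.96 for Col6a1, -0.23 to 2.05 for Col6a2, -0.48 to 2.32 for Col6a3, -0.28 to 2.13 for Col6a4, -0.55 to 2.75 for Col12a1, -0.82 to 1.70 for Col16a1, -0.11 to 0.44 for P4hb and -0.85 to 1.57 for Sparc. Col5a2 was at -0.015 with RLE factors and at -0.017 with DESeq2. Companion genes past the threshold (1) numbered 0 with RLE factors, upper-quartile factors, library size only, at least 10 counts in every library or the 50 most abundant genes left out, 2 without immunoglobulin and T cell receptor segments or at an adjusted p under 0.1, 5 with edgeR's likelihood ratio test, 7 with DESeq2, 14 with no filter, and 0 to 29 with 1 library left out. These counts need the share of all genes called in the same fit. That share was 8.05% with edgeR's likelihood ratio test and 9.94% of genes given an adjusted p with DESeq2. With no filter it was the 1433 higher and 761 lower of 27841 genes given above. Without immunoglobulin and T cell receptor segments, 62 of 15933 genes were called higher and 40 lower. The share at an adjusted p under 0.1 is not given here, so nothing is read from that count. Fits without a WT library rest on a lone WT library. Nothing is therefore read from the larger counts of companion genes. Except where stated, the cause was not tested. No paired analysis was possible because the columns of the table do not carry the replicate numbers of the labels, so the replicate block was not run.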
